A study of Mus musculus with 12 samples.

Results

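The 9 genes described here encode the mouse Sprouty proteins Spry1, Spry2 and Spry4, the Sprouty-related Spred proteins Spred1, Spred2 and Spred3, and the PEA3 transcription factors Etv1, Etv4 and Etv5. They were chosen by name, as inhibitors that the ERK pathway induces and as factors that it controls. Earlier results of these data were known when the choice was made. They are 9 of the 55416 genes in the count table, and all 9 were among the 13250 genes tested. The RNA came from C2C12, an established line of mouse skeletal myoblasts that stop dividing and form multinucleate myotubes in low serum. Cells labelled as Mapk14 knockout (KO-labelled) and wild-type cells (WT) were each cultured for 5 days in differentiation medium (DM) or growth medium (GM). This gave 4 groups (KO DM, KO GM, WT DM and WT GM) of 3 biological replicates each. DM was DMEM with 2% horse serum and GM was DMEM with 10% fetal bovine serum, so the amount and the kind of serum changed together. The sources used here do not say how the gene was edited or how many knockout clones there were, so a difference between the genotype labels and a difference between clones cannot be told apart. Nothing in the labels says what made the biological replicates separate, so p-values measure the spread between these libraries.

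Growth factor receptors signal through Ras, Raf, MEK and ERK, and active ERK switches on genes that hold the pathway back. Sprouty proteins are such inhibitors and act between the receptors and Raf, whereas Spred proteins sit at the membrane and bring the Ras inactivator neurofibromin to Ras. ERK signalling also relieves the repressor Capicua, whose known targets include the PEA3 genes, and the PEA3 proteins, members of the ETS family, activate growth and migration genes. In myoblasts, serum growth factors keep this pathway active and hold back differentiation. Mapk14 encodes p38 alpha, a stress-activated kinase that promotes the myogenic programme.

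Library totals ran from 8821669 to 11536396 counts. Levels are given as CPM, which are counts scaled to a common library size with TMM factors, and a floor of 3 counts corresponds to 0.26 to 0.346 CPM in single libraries. No fall of Mapk14, the gene that the knockout labels name, was called in the KO-labelled libraries. It was at 89.5 ± 4.67 CPM in KO DM and 91.3 ± 2.59 in WT DM, and at 134 ± 3.58 CPM in KO GM and 124 ± 14.02 in WT GM (SD, n = 3 each), with edgeR adjusted p values of 0.822 in DM and 0.35 in GM. Gene counts do not show whether those transcripts are intact. Myod1, a defining myoblast factor, was at 62.0 to 165 CPM in all 12 libraries. The summed level of 9 myoblast and myotube markers was 2906 to 3294 CPM in KO DM and 347 to 586 in KO GM, and 6670 to 6836 CPM in WT DM and 1790 to 2365 in WT GM. The summed level of 4 proliferation markers was 419.6 to 453 CPM in KO DM and 168 to 184 in KO GM, and 317 to 403 CPM in WT DM and 93.7 to 154 in WT GM. Both sums, that of the proliferation markers included, were higher in DM than in GM in each genotype, whereas most members fell in DM. In each medium the KO-labelled cells had the lower myoblast and myotube sum and the higher proliferation sum. The part of these sums in the results was not tested. Of 5 macrophage and leukocyte markers, Ptprc, Adgre1 and Tyrobp were at 0 counts in every library. Csf1r was at 6.18 to 10.3 CPM and Cd68 at 0.801 to 3.34 CPM, and the sum was 7.94 to 11.5 CPM in KO DM and 10.2 to 11.1 in KO GM, against 9.51 to 11.8 in WT DM and 8.57 to 12.8 in WT GM. The 5 endothelial markers summed to at most 0.78 CPM. Of 5 epithelial markers Epcam and Cldn4 were at 0 in every library. The epithelial sum was 13.4 to 14.7 CPM in KO DM and 2.34 to 4.41 in KO GM, against 1.70 to 4.50 in WT DM and 0.897 to 1.88 in WT GM. Of 5 neural and Schwann cell markers Sox10 and Elavl4 were at 0 in every library, and the sum was 6.43 to 7.36 CPM in KO DM and 14.5 to 18.6 in KO GM, against 49.2 to 49.5 in WT DM and 46.0 to 55.5 in WT GM, nearly all of it Tubb3. In bulk RNA, fewer cells of a type and less RNA per cell cannot be told apart. The replicate 3 libraries of both GM groups stood apart from their fellow replicates. Pairs that include them had a chi-square of 9.37 to 14.1 per degree of freedom over genes, against 3.45 to 6.15 for the other pairs, and the calls and counts that change with both left out are given beside the results.

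Promoter sequences from RefSeq on the mouse build GRCm38.p6 (250 bases before to 50 after the annotated start) matched 7 of the 9 genes. The table gives none for Spry4 and Etv4. Of the windows, 4 are shown as examples of the 4 patterns in the levels described next, and they include every window with a motif match. The windows of Spred1, Spred2 and Etv5, which fell in both genotypes like Spred3, hold no match and are not shown. Spry1 rose in DM, Spry2 fell in WT cells with a called difference in response between the genotypes, Spred3 fell in both, and Etv1 had 1 to 6 counts in each KO-labelled library. Each is written 5′ to 3′ on the strand of its gene, and capitals mark a motif match. The Spry1 window is chr3:37639697-37639996 (plus strand), the Spry2 window chr14:105896770-105897069 (minus strand), the Spred3 window chr7:29168598-29168897 (minus strand) and the Etv1 window chr12:38779832-38780131 (plus strand, the first of 2 annotated starts).
Spry1: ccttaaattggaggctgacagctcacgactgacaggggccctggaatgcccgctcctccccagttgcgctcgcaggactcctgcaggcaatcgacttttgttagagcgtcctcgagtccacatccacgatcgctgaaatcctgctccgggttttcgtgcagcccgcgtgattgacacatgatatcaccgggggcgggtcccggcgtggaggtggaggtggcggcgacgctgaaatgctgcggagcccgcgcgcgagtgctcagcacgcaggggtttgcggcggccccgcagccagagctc
Spry2: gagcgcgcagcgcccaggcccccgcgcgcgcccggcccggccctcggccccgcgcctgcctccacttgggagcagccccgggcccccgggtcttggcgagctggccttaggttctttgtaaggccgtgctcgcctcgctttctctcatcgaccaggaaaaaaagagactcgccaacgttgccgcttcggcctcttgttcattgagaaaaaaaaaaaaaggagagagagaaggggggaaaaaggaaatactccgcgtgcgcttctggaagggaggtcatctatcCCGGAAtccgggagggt
Spred3: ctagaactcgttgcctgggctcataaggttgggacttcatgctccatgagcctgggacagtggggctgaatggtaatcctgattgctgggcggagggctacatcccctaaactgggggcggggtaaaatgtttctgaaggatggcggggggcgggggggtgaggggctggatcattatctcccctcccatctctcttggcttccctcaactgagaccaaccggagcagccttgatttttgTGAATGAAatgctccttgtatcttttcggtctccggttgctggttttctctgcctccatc
Etv1: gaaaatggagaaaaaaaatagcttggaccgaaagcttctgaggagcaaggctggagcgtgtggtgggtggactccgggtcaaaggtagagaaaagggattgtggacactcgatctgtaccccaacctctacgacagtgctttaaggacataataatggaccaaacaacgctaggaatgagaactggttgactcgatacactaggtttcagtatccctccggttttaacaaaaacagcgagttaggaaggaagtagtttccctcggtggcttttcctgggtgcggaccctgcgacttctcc

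The same 3 motifs were searched on both strands of the 9 windows of these 7 genes. The ETS core CCGGAA, which PEA3 and other ETS factors bind, was found in the Spry2 window alone, at bases 33 to 38 after the start, and 14.9% of 32841 RefSeq promoter windows of the same length hold it. The Capicua octamer TGAATGNA was found in the Spred3 window alone, from 10 to 3 bases before the start, and 3.82% of all windows hold it. The AP-1 site TGANTCA was in none of the 9 windows and is in 7.81% of all. The searched motifs do not overlap each other in these windows. A match describes the letters and says nothing of binding, and a window without a match says nothing of sites elsewhere.

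**Figure D1:**
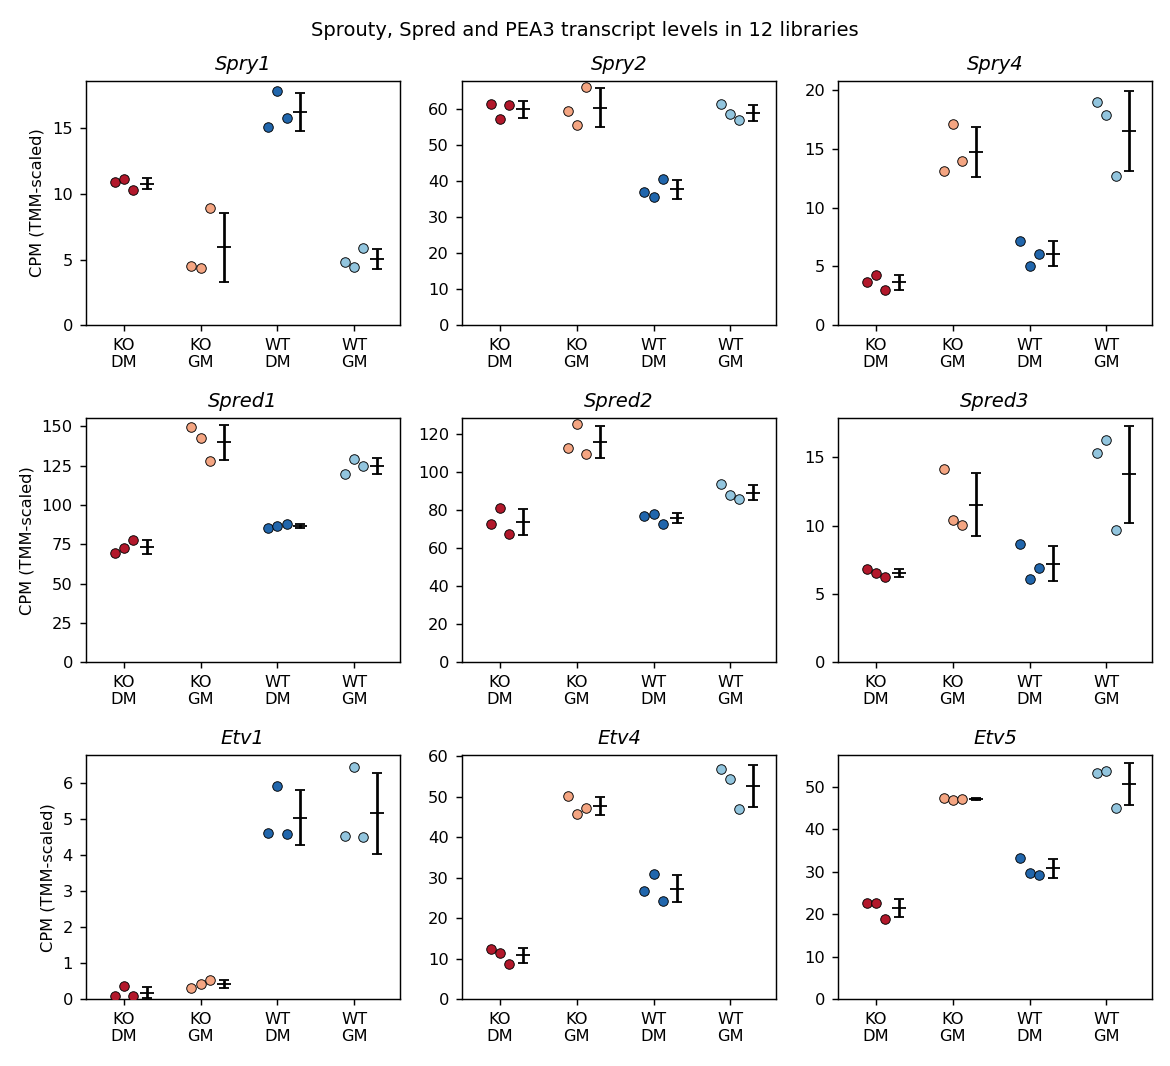
Levels of the 9 genes in CPM after TMM scaling (vertical axes, each starting at 0) in KO-labelled cells in DM and GM and in WT cells in DM and GM. Points are single libraries, and the bars beside them are the mean ± SD of 3 libraries. Spry1 lies higher in DM than in GM in both genotypes, Etv4 lies lowest in KO DM at 8.82 to 12.5 CPM, and Etv1 lies under 1 CPM in every KO-labelled library.

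The Sprouty genes did not respond to differentiation medium as a group. Spry1 rose in both genotypes, Spry4 fell in both, and Spry2 fell in WT cells with no change called in KO-labelled cells. Changes are log2 fold changes of DM over GM ± SE from edgeR's quasi-likelihood test, with p adjusted over the 13250 genes by the Benjamini-Hochberg method, and a gene is said to rise or fall only where that value is under 0.05.

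Spry1, which in mouse muscle stem cells is known for its part in the return to quiescence, had 10.9, 11.1 and 10.3 CPM in KO DM, against 4.51, 4.33 and 8.96 CPM in KO GM. In WT cells the values were 15.1, 17.9 and 15.8 CPM in DM, against 4.83, 4.41 and 5.89 CPM in GM. Every DM library lay above every GM library of its genotype, and replicate 3 of KO GM was about level with the DM libraries while its 2 fellow replicates were well below. The rise was 0.85 ± 0.22 in KO-labelled cells (1.81-fold, adjusted p = 0.00288) and 1.68 ± 0.22 in WT cells (3.21-fold, adjusted p = 2.29e-06). Without replicate 3 of KO GM the rise in KO-labelled cells was 1.29. With replicate 3 of both GM groups left out it was 1.31, against 1.81 in WT cells. Spry1 was the only member that rose in DM in either genotype.

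Spry2, an inhibitor that binds the adaptor Grb2 and the ubiquitin ligase Cbl, had 61.4, 57.2 and 61.1 CPM in KO DM, against 59.6, 55.5 and 66.2 CPM in KO GM. WT cells had 36.9, 35.6 and 40.6 CPM in DM, against 61.4, 58.8 and 57.0 CPM in GM. The WT DM libraries thus stood alone, with 3 values below those of the other 9 libraries, which spanned 55.5 to 66.2 CPM. The fall in WT cells was -0.65 ± 0.09 (1.57-fold lower, adjusted p = 4.78e-06). In KO-labelled cells the change was -0.01 ± 0.08 (adjusted p = 0.928), with an approximate 95% interval of -0.18 to 0.15.

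Spry4, an inhibitor whose transcript is widely used as a readout of ERK signalling, had 3.65, 4.295 and 2.97 CPM in KO DM, against 13.1, 17.2 and 14.01 CPM in KO GM. The WT libraries held 7.14, 5.01 and 6.09 CPM in DM, against 19.0, 17.9 and 12.7 CPM in GM. No DM library reached the lowest GM library in either genotype. The change was -2.02 ± 0.20 in KO-labelled cells (4.06-fold lower, adjusted p = 5.44e-08) and -1.45 ± 0.19 in WT cells (2.73-fold lower, adjusted p = 3.63e-06).

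The Spred genes all fell in differentiation medium in both genotypes. Spred1, whose loss of function causes Legius syndrome in people, had 69.2, 72.8 and 77.9 CPM in KO DM, against 149.8, 142 and 128 CPM in KO GM. In WT cells the levels were 85.1, 86.9 and 87.7 CPM in DM, against 119.7, 129 and 125 CPM in GM. The groups did not overlap in either genotype. The change was -0.93 ± 0.08 in KO-labelled cells (adjusted p = 1.95e-09) and -0.53 ± 0.08 in WT cells (adjusted p = 8.77e-06).

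Spred2, which like Spred1 binds neurofibromin, had 72.5, 81.0 and 67.5 CPM in KO DM, against 113, 126 and 109.5 CPM in KO GM. WT cells gave 77.2, 77.9 and 72.8 CPM in DM, against 93.7, 88.1 and 86.1 CPM in GM. The libraries of the 2 media were again apart in both genotypes, with a wider gap in KO-labelled cells. The change was -0.65 ± 0.08 in KO-labelled cells (adjusted p = 8.70e-07) and -0.23 ± 0.08 in WT cells (adjusted p = 0.0303). The WT call was lost without replicate 3 of WT DM (adjusted p = 0.113) or replicate 1 of WT GM (adjusted p = 0.107).

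Spred3, the member of the family that lacks a working Kit-binding domain in the mouse, had 6.79, 6.54 and 6.22 CPM in KO DM, against 14.2, 10.4 and 10.0 CPM in KO GM. WT libraries had 8.64, 6.13 and 6.89 CPM in DM, against 15.3, 16.2 and 9.68 CPM in GM. Its groups did not overlap, though replicate 3 of WT GM came within about 1 CPM of the highest DM library. The change was -0.82 ± 0.20 in KO-labelled cells (adjusted p = 0.00258) and -0.93 ± 0.20 in WT cells (adjusted p = 0.000947). Spred3 overlaps the gene Ggn, which lies on the opposite strand, and the strand setting of the counting is not known here. Over all libraries Ggn was assigned 257 counts against 1170 for Spred3, and the Ggn counts summed to 84 in KO DM and 72 in KO GM, and to 52 in WT DM and 49 in WT GM. Reads of this pair may be split, so the Spred3 values are uncertain.

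Among the PEA3 genes, Etv4 and Etv5 fell in differentiation medium in both genotypes. No change of Etv1 with the medium was called, and its counts in KO-labelled cells were near the floor. It passed the filter on low counts only through the WT groups, so it had to differ between the genotypes to be tested. Etv4, the founding PEA3 factor, had 12.5, 11.5 and 8.82 CPM in KO DM, against 50.1, 45.8 and 47.2 CPM in KO GM. The libraries of WT cells held 26.7, 31.1 and 24.3 CPM in DM, against 56.8, 54.4 and 46.9 CPM in GM. The 3 KO DM libraries were the lowest of the 12, the 3 WT DM libraries came next, and the GM libraries of the genotypes overlapped at the top. The change was -2.13 ± 0.13 in KO-labelled cells (4.37-fold lower, adjusted p = 1.61e-11) and -0.94 ± 0.11 in WT cells (1.92-fold lower, adjusted p = 1.02e-06).

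Etv5, also called ERM, had 22.7, 22.7 and 18.9 CPM in KO DM, against 47.5, 47.0 and 47.2 CPM in KO GM. For WT cells the values were 33.3, 29.8 and 29.3 CPM in DM, against 53.2, 53.8 and 45.0 CPM in GM. The order of the groups was that of Etv4, with KO DM lowest, WT DM above it and overlapping GM groups at the top. The change was -1.14 ± 0.10 in KO-labelled cells (2.20-fold lower, adjusted p = 8.80e-09) and -0.72 ± 0.10 in WT cells (1.65-fold lower, adjusted p = 5.78e-06).

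Etv1, also called ER81, had 0.101, 0.374 and 0.0929 CPM in KO DM, from 1, 4 and 1 counts, against 0.322, 0.433 and 0.532 CPM in KO GM, from 3, 5 and 6 counts. The WT values were 4.61, 5.93 and 4.59 CPM in DM, from 40, 58 and 46 counts, against 4.53, 6.45 and 4.49 CPM in GM, from 44, 60 and 45 counts. Every KO-labelled library lay far below every WT library, while the media overlapped within each genotype. The change with DM in KO-labelled cells was -1.13 ± 0.65 (adjusted p = 0.176) and rests on 6 counts in DM and 14 in GM. In WT cells the change was -0.03 ± 0.27 (adjusted p = 0.95), with an approximate 95% interval of -0.56 to 0.50.

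Counted over the 9 genes, 7 were called in KO DM against KO GM (1 rose and 6 fell). Of all tested genes 40.6% were called in that comparison, with 20.8% higher and 19.8% lower. In WT DM against WT GM 8 of the 9 were called (1 rose and 7 fell), where 33.2% of all tested genes were called, with 18.4% higher and 14.8% lower. The median change of the 9 was -0.93 in KO-labelled cells and -0.65 in WT cells, against -0.001 and -0.008 over all tested genes. The 3 libraries of each medium lay apart for 7 members in KO-labelled cells and 8 in WT cells, as they did for 50.7% and 44.3% of all tested genes. With replicate 3 of both GM groups left out the counts were again 7 and 8.

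**Figure D2:**
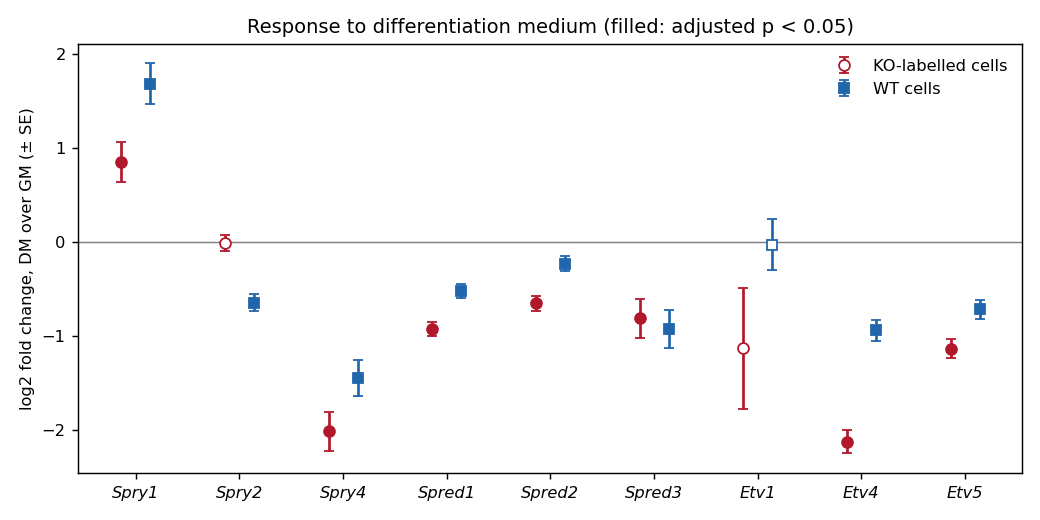
Response of each member to DM, as log2 fold change of DM over GM (vertical axis) ± SE, in KO-labelled cells (circles, left) and WT cells (squares, right), with filled symbols where the adjusted p was under 0.05. Spry1 lies above 0 in both, Spry4, the Spred genes, Etv4 and Etv5 below 0 in both, and Spry2 is at -0.01 in KO-labelled cells and -0.65 in WT cells.

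In growth medium the genotype labels differed in 2 of the 9 genes, Etv1 and Spred2, where 20.7% of all tested genes were called, with 10.0% higher and 10.6% lower. Etv1 was lower in KO-labelled cells by 3.53 ± 0.38 on the log2 scale (adjusted p = 3.41e-07). Its summed counts were 14 in KO GM and 149 in WT GM, a ratio of WT over KO-labelled cells of 11.8 with a 95% counting interval of 6.80 to 22.1. Etv1 passed the filter on low counts only through the WT groups, so it had to differ to be tested, and its call adds nothing to the count of members. Spred2 was higher in KO GM, at 116 ± 8.46 CPM against 89.3 ± 3.93 in WT GM (SD, n = 3 each), a difference of 0.38 ± 0.08 (1.298-fold, adjusted p = 0.00137), and the groups did not overlap.

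The other 7 members were not called in growth medium. Spred1 was at 140.0 ± 11.2 CPM in KO GM and 125 ± 4.89 in WT GM, a difference of 0.17 ± 0.07 (adjusted p = 0.122). Without replicate 3 of KO GM it was 0.22 (adjusted p = 0.0396), so its call turns on that library. For Etv4 and Etv5 the differences were -0.14 ± 0.11 and -0.10 ± 0.10, with approximate 95% intervals of -0.36 to 0.07 and -0.29 to 0.09. Spry4 differed by -0.16 ± 0.17, Spred3 by -0.26 ± 0.19, Spry1 by 0.24 ± 0.24 and Spry2 by 0.03 ± 0.09, and the last 2 took the other sign without replicate 3 of KO GM, at -0.20 and -0.04. Libraries of the 2 genotypes lay apart for 2 members, Etv1 and Spred2, as for 32.3% of all tested genes. The gap of Etv1, like its call, adds nothing to this count. With replicate 3 of both GM groups left out 3 members were called, with Spred1 added at 0.22 (adjusted p = 0.0363).

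In differentiation medium 7 of the 9 genes differed between the genotype labels, where 31.0% of all tested genes were called. Spry2 was higher in KO-labelled cells (13.6% of all tested genes were called higher), and Spry1, Spry4, Spred1, Etv1, Etv4 and Etv5 were lower (17.4% called lower). The libraries of the genotypes lay apart for these 7, as for 47.5% of all tested genes. Etv1 passed the filter only through the WT groups, so in DM too its call and its gap add nothing to these counts. Spry2 averaged 59.9 ± 2.33 CPM in KO DM and 37.7 ± 2.63 in WT DM, a difference of 0.67 ± 0.09 (1.59-fold, adjusted p = 3.59e-06). Etv4 averaged 10.9 ± 1.88 CPM in KO DM and 27.4 ± 3.40 in WT DM, a difference of -1.33 ± 0.13 (2.51-fold lower, adjusted p = 6.07e-08). Etv5 averaged 21.4 ± 2.16 CPM in KO DM and 30.8 ± 2.16 in WT DM (SD, n = 3 each), a difference of -0.52 ± 0.11 (adjusted p = 0.000541). These differences in Spry2, Etv4 and Etv5 were called in all 23 alternative fits.

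Etv1 was lower in KO DM by 4.63 ± 0.44 on the log2 scale (adjusted p = 3.14e-08), with 6 summed counts in KO DM and 144 in WT DM. The ratio of WT over KO-labelled cells was 26.4 with a 95% counting interval of 11.8 to 73.1, which overlaps that in growth medium. With so few counts in the KO-labelled libraries, the size of the difference is loosely known in both media.

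The remaining 3 called differences in DM, in Spry1, Spry4 and Spred1, were each lost when single libraries were left out. Spry1 averaged 10.8 ± 0.422 CPM in KO DM and 16.2 ± 1.45 in WT DM, a difference of -0.59 ± 0.20 (adjusted p = 0.0264). That call was lost without any of the 3 KO DM libraries or without replicate 2 or 3 of WT DM, with adjusted p values of 0.0622 to 0.121. Spry4 averaged 3.64 ± 0.662 CPM in KO DM and 6.08 ± 1.07 in WT DM, a difference of -0.73 ± 0.23 (adjusted p = 0.0159). It was lost without replicate 1 of WT DM (adjusted p = 0.0881), without replicate 3 of KO DM (0.0889) and in limma-voom (0.0612). Spred1 averaged 73.3 ± 4.39 CPM in KO DM and 86.6 ± 1.32 in WT DM (SD, n = 3 each), a difference of -0.24 ± 0.08 (adjusted p = 0.0199). It was lost without any of the WT DM libraries, without replicate 1 or 2 of KO DM, with total counts alone and with no filter, at adjusted p values of 0.0503 to 0.14. Spred2 and Spred3 were not called, with differences of -0.04 ± 0.08 and -0.14 ± 0.21 and approximate 95% intervals of -0.20 to 0.12 and -0.56 to 0.28.

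**Figure D3:**
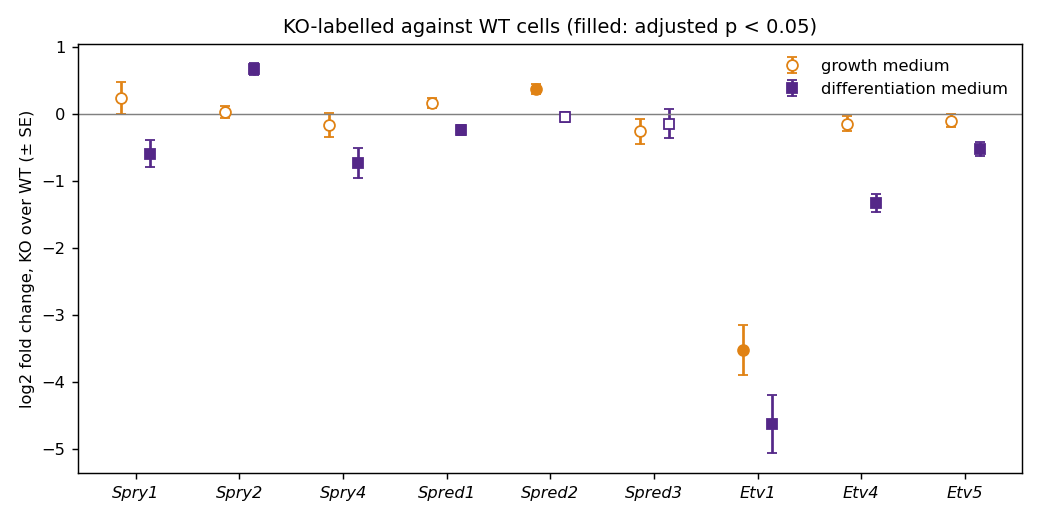
Difference between KO-labelled and WT cells for each member, as log2 fold change of KO over WT (vertical axis) ± SE, in GM (circles, left) and DM (squares, right), with filled symbols where the adjusted p was under 0.05. Etv1 is far below 0 in both media at -3.53 and -4.63, Etv4 is at -1.33 in DM and near 0 in GM, and Spry2 is at 0.67 in DM and 0.03 in GM.

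The response to DM was also compared between the genotypes in a single test, as KO-labelled minus WT. It called 4 of the 9 genes, where 8.86% of all tested genes were called. Etv4 fell further in KO-labelled cells, by -1.18 ± 0.17 (adjusted p = 0.000161). Spry2 had the opposite sign, 0.64 ± 0.12 (adjusted p = 0.00227), since it fell in WT cells and was at -0.01 in KO-labelled cells. Both calls held in all 22 alternative fits. Spred1 and Spred2 fell further in KO-labelled cells, with differences of -0.41 ± 0.11 (adjusted p = 0.0189) and -0.42 ± 0.11 (adjusted p = 0.0225).

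The calls of Spred1 and Spred2 lay near the threshold, and leaving out any of several single libraries lost them. Over all alternative fits the differences stayed at -0.45 to -0.34 for Spred1 and -0.46 to -0.34 for Spred2. Spred1 was called in 14 of 22 alternative fits and lost without WT DM replicate 2 or 3, WT GM replicate 1, KO DM replicate 1 or 2, or KO GM replicate 1 or 2, at adjusted p values of 0.0592 to 0.0876. Spred2 was called in 15 of 22 and lost without WT DM replicate 1 or 2, WT GM replicate 2, KO DM replicate 1 or 3, or KO GM replicate 2, at 0.0642 to 0.099. Both were lost with total counts alone, at 0.0504 and 0.0561, which leaves 2 of the 9 called. Leaving out WT DM replicate 2, KO DM replicate 1 or KO GM replicate 2 also left 2. By direction 3.61% of all tested genes were called higher and 5.25% lower, and with total counts alone 683 were higher and 498 lower, against 478 higher and 696 lower with TMM.

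The other 5 members were not called in the test of the difference. Etv5 was at -0.42 ± 0.14 (adjusted p = 0.0688), Spry4 at -0.57 ± 0.29 (0.229), Spred3 at 0.12 ± 0.29 (0.861) and Etv1 at -1.11 ± 0.70 (0.36). Spry1 was at -0.83 ± 0.31 (adjusted p = 0.0957), at -0.50 (0.236) with replicate 3 of both GM groups left out and at -0.38 (0.379) without that of KO GM alone. It was called with no filter, at -0.81 (adjusted p = 0.0465). A value that misses the threshold does not show that the genotypes responded alike, and the approximate 95% interval for Etv5 was -0.70 to -0.14.

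Genes named as ERK readouts outside the 9 were counted from a list, with Nf1 placed in 2 of the lists that follow. Over all tested genes 40.6% were called in KO DM against KO GM and 33.2% in WT DM against WT GM. Between the genotype labels 20.7% were called in GM and 31.0% in DM, and the test of the difference called 8.86%. List counts near or under these shares are no result about a list. Of 14 other ERK targets, 12 fell in KO DM against KO GM, and 9 fell and 1 rose in WT DM against WT GM. Their median changes were -1.05 in KO-labelled cells and -0.81 in WT cells. Dusp6, a phosphatase that switches ERK off in the cytoplasm, had 20.0, 18.1 and 16.9 CPM in KO DM against 94.1, 108 and 86.0 in KO GM, and 41.0, 35.4 and 28.8 CPM in WT DM against 92.7, 93.2 and 67.9 in WT GM. Its fall was -2.39 ± 0.15 in KO-labelled cells (adjusted p = 2.18e-09) and -1.27 ± 0.14 in WT cells (adjusted p = 2.29e-06). Egr1, an immediate early transcription factor, changed in opposite directions, at -0.41 ± 0.09 in KO-labelled cells (adjusted p = 0.000584) and 0.90 ± 0.09 in WT cells (adjusted p = 3.93e-08).

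Between the genotype labels, 3 of the 14 rose and 1 fell in GM, and 1 rose and 5 fell in DM. Over all tested genes 10.0% were called higher and 10.6% lower in GM, and 13.6% and 17.4% in DM. Those called in GM were Lif at 0.82 ± 0.16, Egr1 at 0.57 ± 0.09, Ier3 at 0.41 ± 0.09 and Epha4 at -1.71 ± 0.40. In GM the count of rises was 5 without KO GM replicate 3, and the count of falls was 2 without WT GM replicate 3. They were 5 and 2 with replicate 3 of both GM groups left out, and 6 and 2 with no filter or with a replicate block. Phlda1, a gene that growth factors induce, averaged 38.04 ± 6.16 CPM in KO DM and 80.0 ± 5.85 in WT DM (SD, n = 3 each), a difference of -1.07 ± 0.16 (adjusted p = 0.000257). The test of the difference in response called 3 of the 14, Egr1 at -1.32 ± 0.12, Dusp6 at -1.12 ± 0.20 and Dusp4 at -0.88 ± 0.19. It called 5 without WT GM replicate 1, 5 with non-robust dispersion, 6 with no filter, 6 with replicate 3 of both GM groups left out and 8 with a replicate block.

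**Figure D4:**
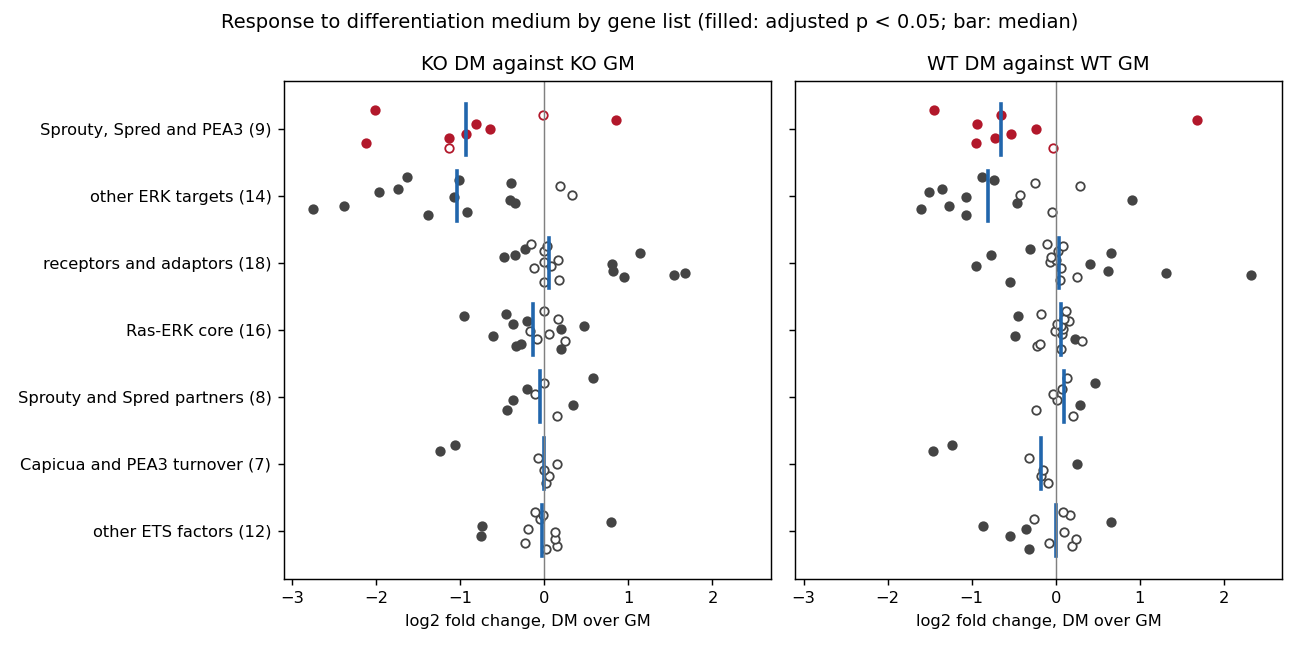
Response to DM of the members and of 6 lists of pathway genes (rows, with the number tested), as log2 fold change of DM over GM (horizontal axis) in KO-labelled cells (left) and WT cells (right). Points are genes, filled where the adjusted p was under 0.05, and bars are medians. The medians of the members are at -0.93 and -0.65 and those of the other ERK targets at -1.05 and -0.81, while those of the other 5 lists lie between -0.17 and 0.11.

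Upstream of the members, 18 receptors and adaptors did not move together. In KO DM against KO GM 6 rose and 3 fell, and in WT DM against WT GM 5 rose and 4 fell, with medians of 0.05 and 0.04. The largest called changes in both genotypes were rises of Fgfr3 and Fgfr4. Fgfr3 was at 1.54 ± 0.26 in KO-labelled cells and 2.32 ± 0.27 in WT cells, and Fgfr4 at 1.68 ± 0.23 and 1.31 ± 0.23. Egfr, a receptor that feeds the pathway, was at -0.001 ± 0.08 in KO-labelled cells and fell in WT cells, at -0.54 ± 0.09 (adjusted p = 3.07e-05). In GM 1 of the 18 was called, Pdgfrb at -0.52 ± 0.09 (adjusted p = 0.000124), 2 without KO GM replicate 3 and 3 with that of both GM groups left out. In DM 6 of the 18 were higher in KO-labelled cells and the rest were not called. Of all tested genes 31.0% were called in DM and 20.7% in GM. The test of the difference called 4, Egfr, Pdgfrb, Pdgfra and Gab1, and 2 without any of WT DM replicate 1 or 2, WT GM replicate 2, KO DM replicate 1 or 3, or KO GM replicate 1 or 2. It called 1 receptor or adaptor lower without replicate 3 of KO GM or of both GM groups.

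Of 16 genes of the Ras-ERK core, 3 rose and 7 fell in KO DM against KO GM, and 1 rose and 2 fell in WT DM against WT GM. The calls in WT cells were under the 33.2% of all tested genes, and those in KO-labelled cells above the 40.6% there. The count of rises in KO-labelled cells was 1 without KO DM replicate 1 or KO GM replicate 1. The single rise in WT cells, Lamtor3 at 0.23 ± 0.09 (adjusted p = 0.0411), was lost without any single library other than WT GM replicate 3. The counts in WT cells turned on the scaling, with 0 rises and 4 falls under upper-quartile factors and 0 rises and 5 falls with total counts alone. Map2k1, which encodes the kinase MEK1, fell in both genotypes, at -0.61 ± 0.07 in KO-labelled cells (adjusted p = 2.93e-07) and -0.48 ± 0.07 in WT cells (adjusted p = 9.97e-06). Rras2, a Ras-related GTPase, was lower in KO-labelled cells in DM by 0.93 ± 0.08 on the log2 scale and in GM by 0.65 ± 0.07. In all, 1 rose and 2 fell in DM between the genotype labels, where 31.0% of all tested genes were called. The single rise in DM, Mras, was lost without WT DM replicate 1 or 3 or KO DM replicate 3. In GM 2 rose and 2 fell, with 1 rise when WT GM replicate 1, or else KO GM replicate 2, was left out, and 1 fall when replicate 2 or 3 of WT GM or replicate 1 or 2 of KO GM was. The test of the difference called 1 higher and 3 lower, among them Rasa1 at -0.51 ± 0.12 (adjusted p = 0.0109). The lower count was 0 without WT DM replicate 2 or KO DM replicate 1, and 1 without WT DM replicate 1 or 3, WT GM replicate 1 or 2, or KO GM replicate 1 or 2. The higher one, Mras again, was lost without any WT DM library, WT GM replicate 1 or 2, KO DM replicate 1 or 3, or KO GM replicate 2. With replicate 3 of both GM groups left out the lower count was 5, 2 rose in DM between the genotype labels, 1 fell in GM and 2 rose in WT DM against WT GM.

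Of the 9 genes whose proteins bind, modify or act through Sprouty or Spred proteins, Kit was at 0 counts in every library and 8 were tested. In KO DM against KO GM 2 rose and 3 fell (40.6% of all tested genes were called), and in WT DM against WT GM 2 rose (33.2%). The WT rises came to 1 without WT DM replicate 2 or 3 or WT GM replicate 2, and 1 fall was added without WT GM replicate 3 or KO DM replicate 1. Between the genotype labels 1 rose and 2 fell in DM (31.0% of all tested genes were called), and 2 rose and 1 fell in GM (20.7%). Of these, the rise in DM was lost without WT DM replicate 1 or KO DM replicate 2 or 3, and 1 fall was lost without WT DM replicate 3 or KO DM replicate 1. In GM the rises were lost without WT GM replicate 1 and came to 1 without KO GM replicate 2, and the fall was lost without WT GM replicate 1 or 2 or KO GM replicate 1 or 2. The test of the difference called 2 lower, Siah2 and Nf1, and at most 1 lower with any single library left out. It called 1 higher, and 1 fell in WT DM against WT GM, with replicate 3 of both GM groups left out. Siah2, a ubiquitin ligase that targets Spry2 for degradation, averaged 28.04 ± 0.925 CPM in KO DM and 38.5 ± 1.65 in WT DM (SD, n = 3 each), a difference of -0.46 ± 0.10 (adjusted p = 0.00142). Cbl, the ligase that Spry2 binds, fell in DM in KO-labelled cells, at -0.44 ± 0.10 (adjusted p = 0.00148), and was at -0.29 without KO DM replicate 1. 

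Around the PEA3 factors, Trib1 and Trib2, Tribbles adaptors of the COP1 ligase that degrades PEA3 proteins, fell in both genotypes. Trib1 changed by -1.25 ± 0.09 in KO-labelled cells and -1.45 ± 0.09 in WT cells, and Trib2 by -1.06 ± 0.14 and -1.24 ± 0.14. The other 5 genes of Capicua and PEA3 turnover were not called in KO-labelled cells, and Cop1 at 0.25 ± 0.08 was called among them in WT cells. That call was lost without WT DM replicate 2 or 3 or WT GM replicate 1 or 2, and without WT GM replicate 3 the falls in WT cells came to 4. Between the genotype labels Trib1 was lower in GM, at -0.29 ± 0.08 (adjusted p = 0.0141), a call lost when WT GM replicate 2, or else KO GM replicate 1, was left out. In DM and in the test of the difference edgeR called 0 of the 7, with 0 at an unadjusted p under 0.05 and 0 by DESeq2 and limma-voom. With replicate 3 of both GM groups left out, edgeR's test of the difference called 1 of the 7 higher, 2 of the 7 fell in GM between the genotype labels and 4 fell in WT DM against WT GM. Of 12 other ETS factor genes tested, 1 rose and 2 fell in KO DM against KO GM, and 1 rose and 4 fell in WT DM against WT GM. In KO-labelled cells the calls among the 7 turnover genes and among these 12 stayed under the 40.6% of all tested genes. Ets2 rose by 0.79 ± 0.07 in KO-labelled cells and 0.66 ± 0.07 in WT cells, and Ets1 fell by 0.74 ± 0.09 and 0.87 ± 0.09 on the log2 scale. Elf1 was higher in KO DM than in WT DM by 0.39 ± 0.11 and Elk3 higher in KO GM than in WT GM by 0.29 ± 0.08, and the other 10 genes were not called in either medium. For these ETS genes edgeR's test of the difference called 0 of 12, with 1 at an unadjusted p under 0.05 and 0 called by DESeq2 and by limma-voom.

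The genes whose pattern was most like that of each member were found among 9287 genes with a mean of at least 10 CPM. Likeness is the root mean square difference of log2 CPM, each gene centred on its own mean over the 12 libraries. Egfr was nearest to Spry2 at 0.0858, against a median of 0.35 over all candidates, with 73.5 CPM in KO DM, 73.5 in KO GM, 51.2 in WT DM and 74.4 in WT GM. Its mean, like that of Spry2, was lowest in WT DM. Rasa1, a Ras GTPase-activating protein gene, was nearest to Spred1 at 0.0879, against a median of 0.412. Ackr3 and Phlda1 were nearest to Etv4, at 0.21 and 0.213 against a median of 0.919, and Phlda1 was also in the list of ERK targets.

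For the other members the nearest genes were further away or less tied to the pathway. Cavin4 was nearest to Spry1 at 0.194, Slc16a11 to Spry4 at 0.157, Arl16 to Spred2 at 0.0789, Gsto1 to Spred3 at 0.145 and Pold4 to Etv5 at 0.109. Smoc2 was nearest to Etv1 at 0.451 against a median of 1.78, with 2.97 CPM in KO DM and 3.73 in KO GM, against 21.9 in WT DM and 31.8 in WT GM. All 12 libraries enter these values, so they describe likeness across 4 groups and not separate evidence.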

How the data were processed

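Gene expression was measured by paired-end RNA sequencing (150 bp reads) in 12 C2C12 libraries. The deposited file held unnormalized whole counts for each Ensembl gene, and 4 empty columns in it were not used. In their processing the authors used the build GRCm39, DESeq2 1.40.2, RSEM 1.3.3, STAR 2.7.1a and R 4.3.1, per the submitters' processing notes, with no role or annotation release stated. With unstranded counting, reads from the overlap of an antisense pair such as Spred3 and Ggn could not be told apart by strand.

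The analysis used edgeR 4.0.16 in R 4.3.3. Genes passing filterByExpr (13250, with 99.9% of all counts) were scaled with TMM factors and entered 1 robust quasi-likelihood fit of all 12 libraries, with 2-sided tests and Benjamini-Hochberg adjustment over all tested genes (called under 0.05). SE is the absolute change over the root of the F statistic, and approximate 95% intervals use the normal quantile times that SE. Levels of different genes were not compared, since no gene lengths of the counting build were at hand. The reads carry no molecular identifiers, so counting error alone is covered by intervals on counts and by floors. On simulated counts of 13030 genes with 200 changed, the KO DM against KO GM comparison called 207, with all 100 of the 4-fold and 95 of the 100 2-fold changes found and 12 false calls. The test of the difference called 204, with 100 and 82 found and 22 false calls. The KO DM against WT DM comparison called 210, with 100 and 95 found and 15 false calls. The share of false calls in this 1 simulation was above the threshold of 0.05 in each of these tests. It was highest in the test of the difference. Calls close to the threshold are thus less sure, most of all in the test of the difference.

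The members and all gene lists were chosen with earlier results of these data known. Named genes are the 9 members, Mapk14, up to 4 called genes of each list and comparison by size, of which the text names part, and the 2 genes most like each member. Alternatives were median-of-ratios, upper-quartile and no scaling factors, DESeq2 1.42.0, limma-voom (limma 3.58.1), no filter, a filter of 1 CPM and 10 counts in 3 libraries, non-robust dispersion, fits of 6 libraries, a replicate block, leaving out each library, and leaving out replicate 3 of both GM groups. 1 gene of the Ras-ERK core list is not reported here and enters none of its counts.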

Additional observations from a re-analysis of the deposited data

Results flagged for a closer look

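The response to DM differed between KO-labelled and WT cells, by edgeR's test of the difference (KO-labelled minus WT, log2 ± SE), in 4 members. Etv4 was at -1.18 ± 0.17, Spry2 at 0.64 ± 0.12, Spred2 at -0.42 ± 0.11 and Spred1 at -0.41 ± 0.11. The Spred1 and Spred2 calls were lost in 8 and 7 of 22 alternative fits. Myoblast, myotube and proliferation marker sums also differed between the groups, and their part in these differences was not tested.

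Of the other ERK targets, Egr1 was at -1.32 ± 0.12, Dusp6 at -1.12 ± 0.20 and Dusp4 at -0.88 ± 0.19. Of the Ras-ERK core, Rasa1 was at -0.51 ± 0.12, Nf1 at -0.40 ± 0.12, Nras at -0.36 ± 0.10 and Mras at 0.41 ± 0.12. Of the receptors and adaptors, Egfr was at 0.54 ± 0.12, Pdgfrb at 0.48 ± 0.12, Pdgfra at 0.42 ± 0.12 and Gab1 at 0.39 ± 0.12. Of the Sprouty and Spred partners, Siah2 was at -0.48 ± 0.15. With single libraries left out, the calls of Egr1, Dusp6, Dusp4, Egfr and Pdgfrb held, and those of Rasa1, Nras, Mras, Pdgfra and Gab1 were lost at least once. Nf1 was lost without any single library other than KO DM replicate 2, and Siah2 without any other than WT GM replicate 1 or KO GM replicate 3. Both were also lost with upper-quartile factors, total counts alone, DESeq2 and the stricter filter. Nf1 was lost with median-of-ratios factors and non-robust dispersion too. With no filter Siah2, Nras, Mras and Gab1 were lost, and Nras also with total counts alone.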

How the results depend on the processing

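The number of members called kept within 1.5 times its value in all 4 pairwise comparisons under every alternative. Leaving out 1 library at a time gave 7 in KO DM against KO GM, 7 to 8 in WT DM against WT GM, 2 to 3 in KO GM against WT GM, 5 to 7 in KO DM against WT DM and 2 to 4 in the test of the difference. The counts between the genotype labels include Etv1, which passed the filter only through the WT groups. With total counts alone 2 members were called in the test of the difference. Over the members' single changes, 971 kept direction and side of the threshold, 32 lost the call, 4 gained it and 18 turned direction, none of these last called in the fit reported. Spry2 in KO DM against KO GM was 0.0079 with total counts alone, 0.0092 with the stricter filter, 0.0826 with replicate 3 of both GM groups left out, and -0.0666 to 0.0653 with single libraries left out. With replicate 3 of both GM groups left out, KO GM against WT GM was -0.0735 for Spry1 and -0.0722 for Spry2. With single libraries left out, this comparison spanned -0.20 to 0.43 for Spry1 and -0.0444 to 0.0872 for Spry2. Likewise Etv1 in WT DM against WT GM spanned -0.17 to 0.15, KO DM against WT DM spanned -0.0955 to 0.0262 for Spred2 and -0.24 to 0.0145 for Spred3, and the difference in response of Spred3 spanned -0.0047 to 0.34. The cause was not tested.

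Same-numbered libraries deviated together only weakly (correlations of -0.0851 to 0.186), and differently numbered ones had correlations of -0.259 to 0.21. Such correlations cannot decide whether the numbers pair the libraries. Over all tested genes a replicate block gave 666 higher and 921 lower in the test of the difference, against 478 and 696 without it. With a replicate block 7, 8, 2 and 7 members were called in the 4 pairwise comparisons and 5 in the test of the difference, with Etv5 added at -0.43 (adjusted p = 0.0341). Counts limit Etv1 most, with 1 to 6 in each KO-labelled library.

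Counts over the pathway lists moved more. In WT DM against WT GM the single rise in the Ras-ERK core was lost with upper-quartile factors, total counts alone, DESeq2, no filter and fits of 6 libraries, and the 2 falls were 4 with upper-quartile factors and 5 with total counts alone. In KO GM against WT GM the 3 rises and 1 fall of other ERK targets were 6 and 2 with no filter or a replicate block. Fits of 6 libraries gave 1 fall in the Ras-ERK core and 0 among the Sprouty and Spred partners in that comparison, and 2 rises in the Ras-ERK core in KO DM against WT DM. In the test of the difference, the 3 other ERK targets called lower were 5 with non-robust dispersion, 6 with no filter and 8 with a replicate block. The 3 lower in the Ras-ERK core were 1 with total counts alone, and the 2 lower among the partners were 0 with upper-quartile factors, total counts alone and the stricter filter.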
